A study of Mus musculus with 6 samples.

Results

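Erythroid lineage genes were followed in mouse hematopoietic stem cells (HSCs), the bone marrow cells that renew themselves and give rise to every blood lineage. The set was given by name and not by any measured value, although earlier results of these data were known when it was chosen. It comprised Gata1, Klf1, Epor, Hba-a1, Hbb-bt, Car1, Car2, Tfrc and Alas2. All 9 symbols mapped to 1 identifier each among the 55401 genes of the deposited table. The cells had been sorted by surface markers as CD48-CD150+LSK, where LSK stands for lineage-negative, Sca-1-positive and c-Kit-positive. There were 3 control samples from Emp1fl/fl mice, whose Emp1 alleles are floxed, and 3 Emp1-deficient samples from Emp1fl/fl,Tie2-Cre mice. The floxed alleles are shared by all 6, and Cre is expressed from the promoter of Tie2, a gene active in endothelial as well as blood-forming cells, so the deletion is not restricted to HSCs. The labels give no age, and separate mice are not told from pools, so the p-values reflect no more than how far these libraries scatter, a scatter that may be technical.

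Red cell development is controlled by a small set of nuclear factors and by the hormone erythropoietin. Gata1, a zinc-finger factor, and Klf1, which binds CACCC boxes, switch on most genes of the lineage, and the receptor Epor carries the signal of that hormone through the kinase Jak2 to Stat5. Tfrc brings in transferrin-bound iron, Alas2 opens the haem synthesis of red cell precursors, Hba-a1 and Hbb-bt encode adult globin chains, and Car1 and Car2 encode carbonic anhydrases that interconvert carbon dioxide and bicarbonate. Haemoglobin and membrane genes rise late in this sequence, whereas low levels of the early factors are known in stem and progenitor cells.

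Because Gata1 and Klf1 act through short DNA motifs, the stretches before the start sites of 5 of these genes are shown, from the regulators to a late haem enzyme and a globin. Sequences are from RefSeq on GRCm38.p6, 150 bases up to the RefSeq start site, 5′ to 3′ on the gene's strand. Capitals mark the motif GATAA, which reads TTATC where it lies on the opposite strand, and the motif CACCC, which then reads GGGTG. Both strands were searched, and the motifs do not overlap in these stretches.
Gata1, chrX:7967911-7968060, minus strand: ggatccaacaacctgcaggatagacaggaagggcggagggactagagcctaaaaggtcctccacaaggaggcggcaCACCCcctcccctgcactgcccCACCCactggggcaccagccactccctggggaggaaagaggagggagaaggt
Klf1, chr8:84901832-84901981, plus strand: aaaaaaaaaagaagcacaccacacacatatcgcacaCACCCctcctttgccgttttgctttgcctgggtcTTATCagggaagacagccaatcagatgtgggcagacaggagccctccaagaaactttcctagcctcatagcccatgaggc
Epor, chr9:21963577-21963726, minus strand: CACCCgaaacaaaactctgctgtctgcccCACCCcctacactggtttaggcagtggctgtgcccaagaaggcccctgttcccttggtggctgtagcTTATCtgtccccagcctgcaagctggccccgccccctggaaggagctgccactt
Alas2, chrX:150547267-150547416, plus strand: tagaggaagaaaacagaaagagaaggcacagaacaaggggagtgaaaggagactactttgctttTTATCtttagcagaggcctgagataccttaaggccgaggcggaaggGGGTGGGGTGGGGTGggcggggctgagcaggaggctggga
Hbb-bt, chr7:103813924-103814073, minus strand: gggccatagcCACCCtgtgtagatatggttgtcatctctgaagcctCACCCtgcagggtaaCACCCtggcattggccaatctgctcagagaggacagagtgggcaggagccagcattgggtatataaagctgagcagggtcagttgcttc

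Promoters were found for 7 of the 9 genes, the exceptions being Car1 and Car2. Within 250 bases of the start, 7 of 7 held CACCC, a motif found in 51.3% of 27025 promoter windows of that length, and 5 of 7 held GATAA, found in 23% of them. The opposite-strand GATAA of Klf1 began 80 bases before the start, that of Epor 54 and that of Alas2 86. Alas2 carried CACCC 3 times in tandem on the opposite strand, and Hbb-bt 3 times on its own strand. The windows of Gata1 and Tfrc held no GATAA. These matches describe letters only.

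Values are the authors' FPKM (fragments per length of transcript and per total of fragments), which are scaled for gene length, so levels can be set side by side between genes. Between 14334 and 18048 genes per library reached 1 FPKM. Depth relative to control replicate 1 was not measured but inferred from the most frequent FPKM ratio of low single-exon genes. This estimate lay between 0.776 and 1.87, the latter in Emp1-deficient replicate 3. Absolute depth is unknown and no counting intervals are given. Mitochondrially encoded genes took 4.06% to 4.8% of summed FPKM in controls and 5.41% to 6.98% in Emp1-deficient libraries, without overlap, and the part of this in the results was not tested. Emp1 stood at 3.25, 2.64 and 4.32 FPKM in the controls, against 0.58, 0.7 and 0.27 FPKM in the Emp1-deficient group, in the direction of the labels (limma adjusted p = 0.0577). HSC markers were present in every library: Slamf1, which encodes CD150, ranged from 15.12 to 27.56 FPKM and Kit from 216.59 to 337.25 FPKM. Of 12 HSC markers tested, 9 were lower and 3 higher in Emp1-deficient libraries, with 0 at a limma adjusted p under 0.05. Hlf and Ly6a, named after their values were seen, were lower without overlap. Means in controls and Emp1-deficient libraries were 57.9 and 39.8 FPKM for Hlf (limma adjusted p = 0.153). For Ly6a they were 93.1 and 73.6 FPKM (limma adjusted p = 0.199). Slamf1 was higher, with overlap (limma adjusted p = 0.241). Cd48, whose protein the gate excludes, was also read, at 22.89 to 49.62 FPKM. Genes of other lineages were read as well, among them Prtn3 of neutrophil granules (361.75 to 501.12 FPKM) and Itga2b of megakaryocytes (183.96 to 263.15 FPKM), so the libraries cannot show in which cells a transcript lay.

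None of the 9 erythroid genes passed the test between the genotypes. By limma on log2(FPKM + 1), 0 of 9 had a Benjamini-Hochberg adjusted p under 0.05 in either direction, against 0.267% of the 15723 genes tested (25 higher and 17 lower in Emp1-deficient libraries). At an unadjusted p under 0.05 there were 0 of 9 too, against 16.2% of genes tested, and in 0 of 9 did the genotypes fail to overlap, against 22.1% (13.2% lower and 8.91% higher). Over the 15723 genes tested, 6773 were higher and 8950 lower in log2 fold change. By limma 1022 higher and 1529 lower had an unadjusted p under 0.05. The counts of the lists below are to be read beside these. All 9 erythroid genes passed the filter on low values. Their log2 fold changes had a median of -0.060, near the -0.046 of all genes tested, with 2 genes higher and 7 lower, where higher and lower in counts refer to the log2 scale. In 15 alternative analyses, which gave 134 values for these genes, 0 were called and the smallest adjusted p was 0.403. In bulk samples fewer cells of a type and less RNA per cell cannot be told apart.

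**Figure D1:**
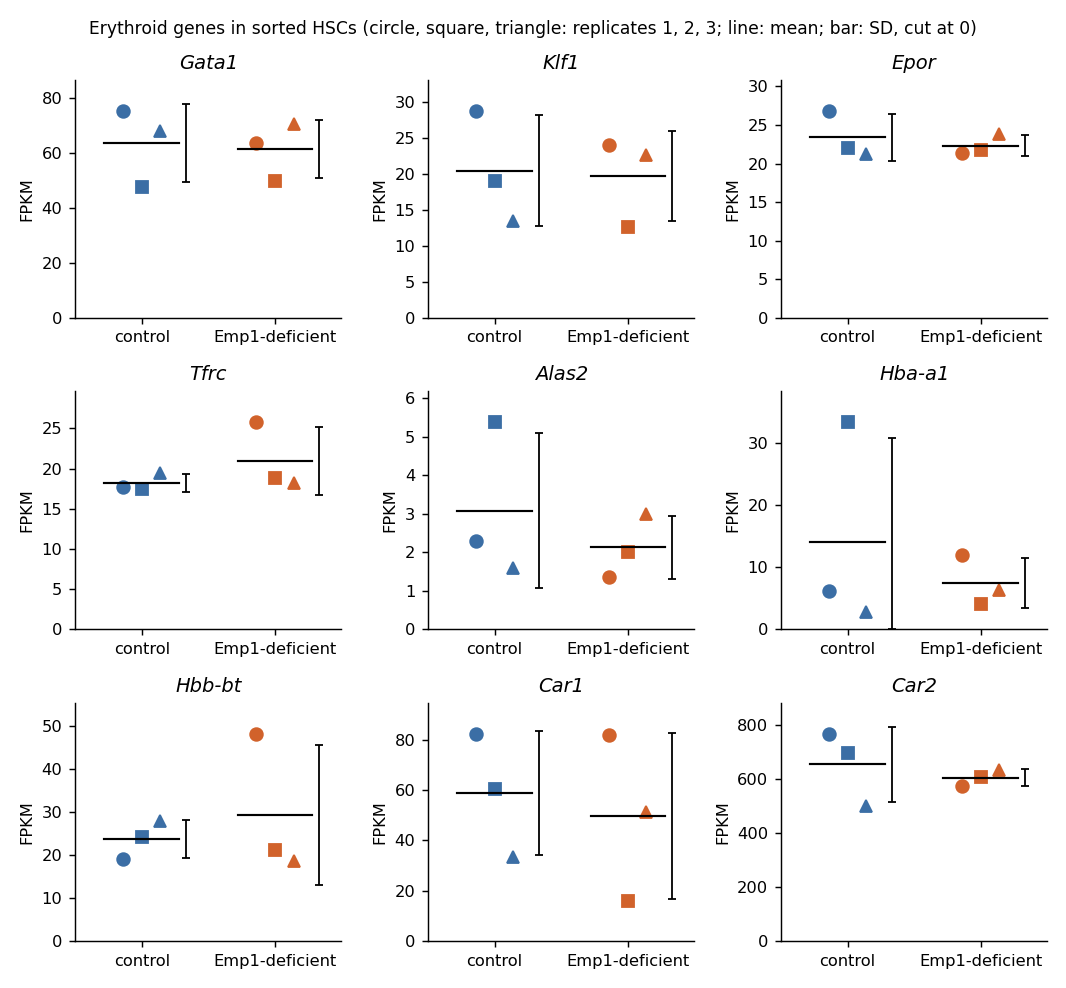
FPKM of each erythroid gene in the 3 control and 3 Emp1-deficient libraries, with a linear axis from 0 in each panel. Circles, squares and triangles are replicates 1, 2 and 3, lines are means and bars are SD. In all 9 panels the genotypes overlap, and the single high Hba-a1 value of 33.35 FPKM belongs to control replicate 2.

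The transcription factor Gata1 (ENSMUSG00000031162, mm10 chromosome X, 7959260 to 7978071) was read at 75.19, 47.67 and 67.82 FPKM in the controls, against 63.54, 49.85 and 70.53 FPKM in the Emp1-deficient group. Replicate 2 was lowest in both genotypes, and the ranges overlapped almost fully. The means were 63.6 ± 14.2 and 61.3 ± 10.5 FPKM (SD, n = 3 each), a log2 fold change of -0.040 (SE 0.19, limma adjusted p = 0.946). On the FPKM + 1 scale the 95% limits of the fold ran from 0.721 to 1.31.

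Klf1 (ENSMUSG00000054191, chromosome 8, 84901928 to 84905291) was read at 28.83, 19.05 and 13.54 FPKM in the controls, against 24.09, 12.6 and 22.71 FPKM in the Emp1-deficient group. Each genotype had low and high libraries, with Emp1-deficient replicate 2 the lowest of all. The log2 fold change was -0.035 (SE 0.33, limma adjusted p = 0.973), with limits of the fold from 0.565 to 1.69, so the precision is lower than for Gata1.

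Of 19 erythroid transcription factors and cofactors, all of which were tested, 14 were lower and 5 higher, with 0 called by limma (3 lower and 1 higher with an unadjusted p under 0.05) and a median log2 fold change of -0.12. In 3 of 19 the genotypes did not overlap, all lower, against 13.2% of all genes tested in that direction. Zbtb7a, a repressor of fetal globin genes that Klf1 is known to activate, stood at 38.57, 40.07 and 47.11 FPKM in the controls, against 28.21, 28.07 and 22.93 FPKM in the Emp1-deficient group. All 3 Emp1-deficient values lay under the lowest control, by a log2 fold change of -0.65 (SE 0.13, limma adjusted p = 0.0747). It passed when only genes with at least 5 FPKM in 3 libraries were tested (adjusted p = 0.0476) or when short and non-coding genes were left out, which kept protein-coding genes of 400 bp of exons or more (adjusted p = 0.0353). Ldb1, the bridging cofactor that joins Gata1 complexes at enhancers, averaged 26.4 ± 2.83 and 20.5 ± 1.92 FPKM (limma adjusted p = 0.220), and Foxo3, which acts against oxidative stress in red cell precursors, 26.8 ± 1.31 and 21.6 ± 1.19 FPKM (limma adjusted p = 0.214). The most abundant factors did not pass the test. Lmo2, a part of the Ldb1 complex, averaged 271 ± 2.99 and 348 ± 202 FPKM, the second mean drawn by 571.5 FPKM in Emp1-deficient replicate 3. Nfe2 averaged 269 ± 24.7 and 257 ± 61.2 FPKM, and Gata2, the stem cell GATA factor that Gata1 replaces during maturation, 162 ± 32.3 and 151 ± 45.7 FPKM. Gata2 exceeded Gata1 in every library, by 1.70-fold to 3.01-fold per length. E2f4, a cell cycle factor needed for red cell maturation in mice, averaged 25.2 ± 2.37 and 33.8 ± 7.98 FPKM (limma adjusted p = 0.301).

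The receptor gene Epor (ENSMUSG00000006235, chromosome 9, 21958897 to 21963506) was read at 26.85, 22.03 and 21.3 FPKM in the controls, against 21.38, 21.73 and 23.84 FPKM in the Emp1-deficient group. It was the steadiest of the 9 genes, with a highest library 1.26-fold above the lowest. The log2 fold change was -0.060 (SE 0.12, limma adjusted p = 0.871), and the limits of the fold ran from 0.790 to 1.17.

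Of Epor and the genes that act below it, 15 of 17 were lower, against 8950 of all 15723 genes tested, and the median log2 fold change was -0.13. This list was chosen with earlier results of these data known, so its counts beside those of all genes describe it and are no test. By limma 1 of 17 fell and 0 rose, against 0.108% of genes tested that fell. At an unadjusted limma p under 0.05 there were 5 lower and 0 higher, against 1529 lower and 1022 higher of the 15723 genes tested. In 5 of 17 all Emp1-deficient values lay below all control values, against 13.2% of genes tested. Cish, an inhibitor of cytokine receptors that Stat5 induces, stood at 32.35, 39.67 and 36.93 FPKM in the controls, against 18.21, 21.88 and 20.52 FPKM in the Emp1-deficient group (log2 fold change -0.81, SE 0.12, limma adjusted p = 0.0420). This call was kept in 4 of 15 alternatives. It was lost on leaving out any single library, with an adjusted p from 0.0650 to 0.180, and with replicate number as a block (adjusted p = 0.098). Its log2 fold change stayed between -0.89 and -0.75 on leaving out a library. Socs2, another Stat5-induced inhibitor of the same family, stood at 18.81, 27.98 and 19.19 FPKM and at 12.84, 10.95 and 11.85 FPKM. It differed by a similar -0.82 on the log2 scale (SE 0.17), without passing over all genes (limma adjusted p = 0.0810) but passing once short and non-coding genes were left out (adjusted p = 0.0373).

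The other 3 genes of the pathway without overlap had smaller differences and did not pass the test. Stat5a, the transcription factor itself, stood at 61.72, 59.36 and 63.46 FPKM in the controls, against 52.39, 51.98 and 51.38 FPKM in the Emp1-deficient group (limma adjusted p = 0.225). Cbl, a ubiquitin ligase that removes activated receptors, averaged 20.9 ± 1.25 and 15.4 ± 1.3 FPKM (limma adjusted p = 0.149). Lyn, a Src-family kinase singled out once its values were known, averaged 29.0 ± 0.560 and 24.1 ± 1.65 FPKM (limma adjusted p = 0.266). The abundant inhibitors, the phosphatase gene Ptpn6 (175 ± 24.6 and 173 ± 14.2 FPKM) and Socs3 (139 ± 25.7 and 117 ± 35.6 FPKM), overlapped. Pim1, a kinase that Stat5 also induces, went the other way, with 178 ± 25.1 and 219 ± 63.9 FPKM and overlapping libraries. Cytokines other than erythropoietin use the same Jak2 and Stat5 genes, and these libraries do not separate them. Among 55 tested markers of HSCs and other cell types, 10 (18.2%) had no overlap between the genotypes, against 22.1% of all genes tested. Some are named here after their values were seen. The monocyte genes Irf8 (14.4 ± 3.57 and 6.25 ± 0.792 FPKM) and Csf1r (8.77 ± 2.55 and 3.81 ± 1.47 FPKM) were lower, both without overlap (limma adjusted p = 0.0661 for Irf8 and 0.124 for Csf1r). These were the only 2 without overlap of 9 monocyte and macrophage markers. Of the 9, 7 were lower and 2 higher, with a median log2 fold change of -0.49. The higher ones were Ly6c2 (means of 6.85 and 8.74 FPKM) and Cd68 (means of 31.12 and 32.49 FPKM), both with overlap. Of the basophil and mast cell markers Fcer1a was higher (19.5 ± 7.90 and 48.3 ± 7.13 FPKM, limma adjusted p = 0.138) and Ms4a2 lower (2.40 ± 0.458 and 1.49 ± 0.0924 FPKM, limma adjusted p = 0.355), each without overlap. Summed over 9 monocyte and macrophage markers the range was 460.1 to 497.2 FPKM in controls and 374.2 to 499 FPKM in Emp1-deficient libraries. Lyz2 (278 ± 18.1 and 264 ± 14.5 FPKM) made up most of that sum. Over 9 basophil and mast markers the range was 170.2 to 242.2 FPKM in controls and 186.6 to 267.3 FPKM in Emp1-deficient libraries. Gata2, which is in that list, made up most of that sum (162 ± 32.3 and 151 ± 45.7 FPKM). The overlap of the sums therefore says little of the other markers of that list. Over 8 T and NK cell markers the range was 199.1 to 265 FPKM in controls and 267.6 to 377.2 FPKM in Emp1-deficient libraries. That sum was made up mostly by Nkg7 (217 ± 36.8 and 313 ± 55.3 FPKM, limma adjusted p = 0.168). In the same list Cd4 was lower without overlap, at 4.78 ± 1.57 and 0.930 ± 0.316 FPKM (limma adjusted p = 0.0577), and the 4 tested members split into 2 higher and 2 lower. No marker of these lists was at 0 in all libraries, while the basophil and mast cell proteases Cma1, Tpsb2 and Prss34 and the T cell genes Cd3d, Cd3g and Cd8a stayed below 1 FPKM in all. The part of these cells in the Cish difference was not tested.

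**Figure D2:**
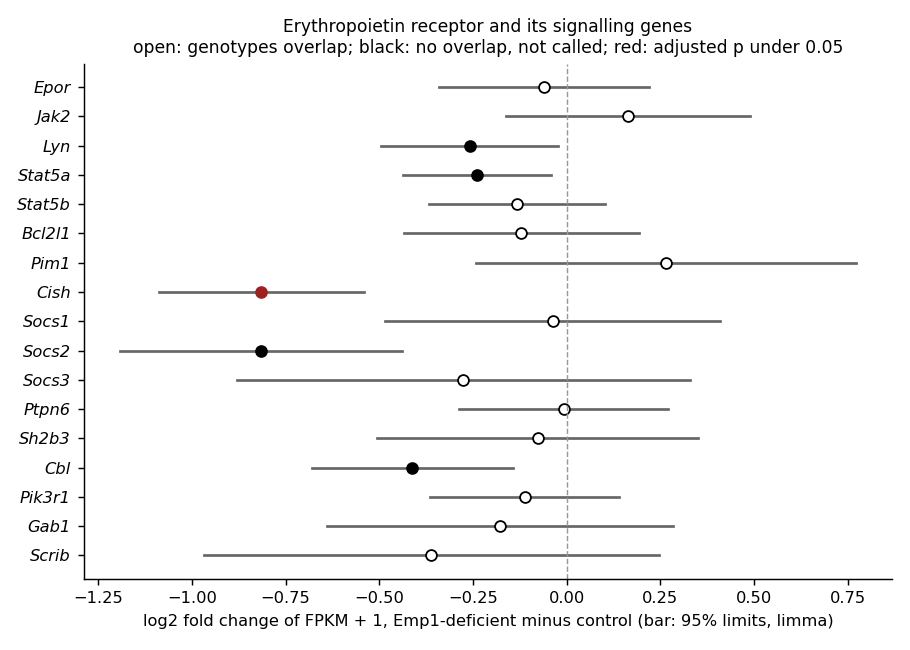
Log2 fold change of FPKM + 1, Emp1-deficient minus control, for Epor and 16 signalling genes, with 95% limits from limma. Cish, in red, is the 1 gene with an adjusted p under 0.05, black points mark the 4 other genes whose genotypes did not overlap, and Epor lies at -0.060.

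Of the iron genes, Tfrc (ENSMUSG00000022797, chromosome 16, 32608920 to 32632794) was read at 17.66, 17.48 and 19.49 FPKM in the controls, against 25.75, 18.85 and 18.17 FPKM in the Emp1-deficient group. Emp1-deficient replicate 1 stood above the 5 others, which lay close together. The log2 fold change was 0.18 (SE 0.15, limma adjusted p = 0.625), with limits of the fold from 0.895 to 1.42, and it was positive in all 15 alternatives, with 0 calls. The sister receptor Tfr2, which senses iron-loaded transferrin, was 5.74-fold to 9.55-fold more abundant per length than Tfrc in every library, at 148 ± 14.6 and 162 ± 13.2 FPKM. Among 17 genes of iron uptake and storage 16 were tested, with 8 higher, 8 lower and 0 called by limma (0 higher and 1 lower with an unadjusted p under 0.05), and the median was 0.042. The ferritin subunit genes were the most abundant, Ftl1 at 2550 ± 185 and 3081 ± 403 FPKM and Fth1 at 1607 ± 52.5 and 1708 ± 120.5 FPKM. Steap3, the reductase that acts on iron delivered by Tfrc in red cell precursors, averaged 11 ± 1.47 and 8.09 ± 1.79 FPKM (limma adjusted p = 0.291).

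Alas2 (ENSMUSG00000025270, chromosome X, 150547375 to 150570638) was the lowest of the 9 genes, at 2.29, 5.37 and 1.58 FPKM in the controls, against 1.36, 2.01 and 3 FPKM in the Emp1-deficient group. Control replicate 2 was the highest and the rest lay between 1.36 and 3 FPKM. The log2 fold change of -0.31 (SE 0.35, limma adjusted p = 0.730) turned to 0.067 without control replicate 2. Its housekeeping sister Alas1 opens haem synthesis outside the red cell lineage, and the coding sequences share 62.4% of aligned bases. Alas1 stood at 37.99, 30.36 and 28.92 FPKM in the controls, against 16.17, 23.96 and 26.84 FPKM in the Emp1-deficient group. The genotypes did not overlap, although the lowest control and the highest Emp1-deficient library lay close (log2 fold change -0.54, SE 0.19, limma adjusted p = 0.215). Alas1 exceeded Alas2 in every library, by 5.65-fold in control replicate 2 and by 8.95-fold to 18.3-fold in the others. Of 14 haem synthesis genes, all tested, 5 were higher and 9 lower with a median of -0.053, and 0 were called by limma (1 lower and 0 higher with an unadjusted p under 0.05). Tmem14c, which carries haem precursors in mitochondria, averaged 86.7 ± 7.2 and 69.7 ± 17.3 FPKM.

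Of the globin genes, Hbb-bt lay above 79.6% and Hba-a1 above 66.7% of protein-coding genes by mean FPKM, and Hba-a1 had the widest scatter of the 9 genes. Hba-a1 (ENSMUSG00000069919, chromosome 11, 32283511 to 32284465), an alpha chain gene, stood at 6.17, 33.35 and 2.87 FPKM in the controls, against 11.91, 4.15 and 6.37 FPKM in the Emp1-deficient group. Control replicate 2 lay far above the other 5, and the highest library was 11.6-fold above the lowest. The log2 fold change of -0.32 (SE 0.96, limma adjusted p = 0.915) turned to 0.58 without control replicate 2, and the limits of the fold ran from 0.136 to 4.71. Hbb-bt (ENSMUSG00000073940, chromosome 7, 103812524 to 103813996), a beta chain gene, stood at 18.93, 24.1 and 27.72 FPKM in the controls, against 48.05, 21.08 and 18.65 FPKM in the Emp1-deficient group. Here the single high library was Emp1-deficient replicate 1, and without it the log2 fold change of 0.19 (SE 0.37, limma adjusted p = 0.864) turned to -0.22.

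Both genes have a near-identical copy, so the division of reads is uncertain. The coding sequences of Hba-a1 and Hba-a2 differ at 1 of 429 bases, and those of Hbb-bt and Hbb-bs at 1 of 444. Hba-a2 followed Hba-a1 with its peak of 48.84 FPKM in control replicate 2, and the ratio of Hba-a1 to Hba-a2 was 0.655, 0.683 and 0.669 in the controls and 0.734, 1.04 and 1.06 in the Emp1-deficient group, without overlap and not tested. Hbb-bs peaked at 42.12 FPKM in control replicate 2, where Hbb-bt did not, and its ratio to Hbb-bt was 1.75 there against 0.357 to 0.860 elsewhere. Summed over both copies, alpha chain genes stood at 15.59, 82.19 and 7.16 FPKM in the controls, against 28.14, 8.15 and 12.37 FPKM in the Emp1-deficient group. Beta chain genes summed to 26.74, 66.22 and 37.61 FPKM and to 68.29, 39.2 and 28.4 FPKM. The sums did not separate the genotypes (exact two-sided permutation p = 0.7 for each, where 3 against 3 cannot go below 0.1). All 4 adult globin genes made up 0.00552% to 0.0206% of summed FPKM. Of 11 globin genes in the table only these 4 passed the filter (2 higher, 2 lower, 0 called by limma and 0 with an unadjusted p under 0.05). Of the other 7, Hbb-bh0 was listed at 0 throughout, and 5 of 11, Hbb-bh0 included, stayed below 1 FPKM in every library.

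The carbonic anhydrase gene Car2 (ENSMUSG00000027562, chromosome 3, 14886273 to 14900770) was the most abundant of the 9, at 765.27, 695.52 and 498.64 FPKM in the controls, against 571.28, 605.88 and 633.67 FPKM in the Emp1-deficient group. Its mean lay above that of 99.4% of protein-coding genes. The Emp1-deficient values lay inside the control range, with 653 ± 138 and 604 ± 31.3 FPKM (SD, n = 3 each), a log2 fold change of -0.092 (SE 0.16, limma adjusted p = 0.838) with limits of the fold from 0.731 to 1.21. Car1 (ENSMUSG00000027556, chromosome 3, 14766216 to 14808368), a gene of the same cluster, was read at 82.38, 60.57 and 33.24 FPKM in the controls, against 81.81, 15.74 and 51.49 FPKM in the Emp1-deficient group. Emp1-deficient replicate 2 was the lowest, and the top of both genotypes was nearly equal. Its mean over all libraries, 54.2 FPKM, was close to the 62.4 FPKM of Gata1, yet its highest library was 5.23-fold above the lowest, against 1.58-fold for Gata1. The log2 fold change of -0.42 (SE 0.75, limma adjusted p = 0.850) turned to 0.24 without Emp1-deficient replicate 2. Of 16 carbonic anhydrase genes 9 were tested, 1 higher and 8 lower, with 0 called by limma (0 higher and 1 lower with an unadjusted p under 0.05). That 1 was Car13 of the same cluster, with 5.09 ± 0.894 and 3.27 ± 0.930 FPKM (limma adjusted p = 0.268).

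**Figure D3:**
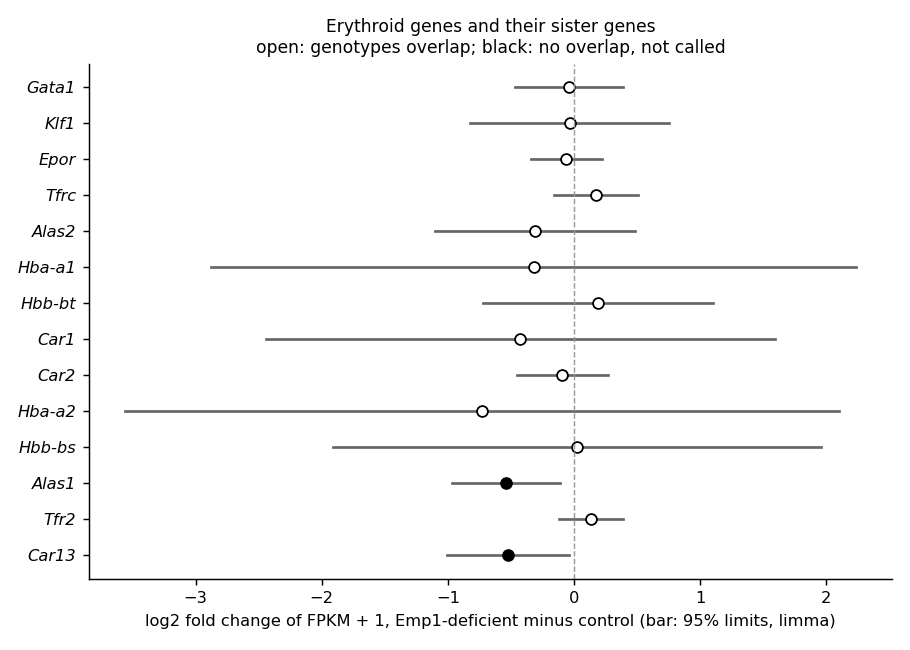
Log2 fold change of FPKM + 1, Emp1-deficient minus control, with 95% limits from limma, for the 9 erythroid genes and 5 sister genes. All 14 points are uncalled. Limits are narrow for Epor (-0.34 to 0.22) and wide for Hba-a1 (-2.88 to 2.24).

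Ordered by mean level over the 6 libraries, Car2 (628 FPKM) came first and did not overlap with the next gene. Gata1 (62.4 FPKM) and Car1 (54.2 FPKM) overlapped in range, as did each following neighbour: Hbb-bt (26.4 FPKM), Epor (22.9 FPKM), Klf1 (20.1 FPKM), Tfrc (19.6 FPKM), Hba-a1 (10.8 FPKM) and Alas2 (2.60 FPKM). Library by library, Car2 exceeded Gata1 and Hba-a1 exceeded Alas2 in 6 of 6, and the other 6 pairs of neighbours kept their order in 3 to 5 of 6.

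Genes of the red cell membrane and of blood group antigens, many of them late, covered a wide range of levels. Of 25, 19 were tested (4 higher, 15 lower, 0 called by limma, 1 higher and 0 lower with an unadjusted p under 0.05), with a median of -0.080, while the other 6 stayed below 1 FPKM in every library. Among the lowest was Slc4a1, the anion exchanger band 3 of mature red cells, named after its values were seen, which ranged from 0.08 to 0.39 FPKM. The most abundant were not particular to mature red cells: Cd47, the signal that spares cells from macrophages, averaged 350.1 ± 9.91 and 342 ± 11.7 FPKM, and Gypc, which encodes glycophorin C, 79.1 ± 9.11 and 76.8 ± 9.41 FPKM. Cd59a, which protects cells from complement, had the smallest p of the list. It stood at 14.38, 16.75 and 16.02 FPKM in the controls, against 39.5, 24.18 and 24.55 FPKM in the Emp1-deficient group (log2 fold change 0.83, SE 0.19, limma adjusted p = 0.0944), and passed only with short and non-coding genes left out (adjusted p = 0.0430). Rhag, the Rh-associated glycoprotein, averaged 5.04 ± 0.609 and 6.96 ± 1.14 FPKM (limma adjusted p = 0.309).

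**Figure D4:**
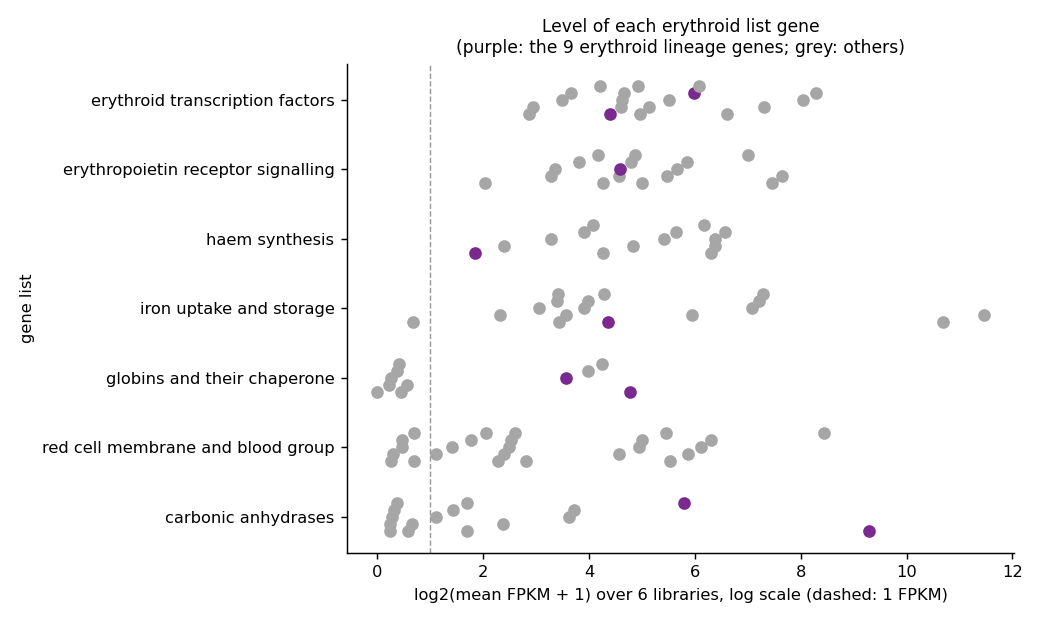
Level of each gene of 7 erythroid lists as log2(mean FPKM + 1) over the 6 libraries, with the 9 erythroid lineage genes in purple and a dashed line at 1 FPKM. All 19 transcription factors lie above the line, while 6 of 25 membrane genes stayed below 1 FPKM in every library.

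Libraries of the same genotype lay further apart than the means of the genotypes. Averaged over the 9 genes, deviations from the 6-library mean on the log2 scale were 0.14, 0.31 and -0.30 in controls and 0.25, -0.41 and 0.012 in Emp1-deficient libraries. Emp1-deficient replicate 2 was low in Car1, Klf1 and Gata1, and control replicate 2 was high in Hba-a1 and Alas2 but low in Gata1. A pair of blood group genes, named after their values were seen, shared the low point of Car1 and Klf1. Ermap stood at 7.61, 7.57 and 2.58 FPKM in the controls, against 3.88, 0.86 and 5.06 FPKM in the Emp1-deficient group, and Rhd at 4.36, 3.12 and 2.14 FPKM and 3.94, 0.4 and 4.89 FPKM. Neither passed the test (limma adjusted p = 0.578 and 0.876). In control replicate 2 the plasma cell gene Jchain (25.75 FPKM, against 2.72 to 21.55 in the others) and Ighm (215.42 FPKM, against 4.32 to 44.16) were also at their highest, named after their values were seen. Igkc and Cd79b of the same list were not at their highest there. Igkc, the most abundant of that list, stood at 341.25 FPKM, within 58.85 to 1379.19 over all libraries. Cd79b stood at 34.31 FPKM, within 28.52 to 40.04. Over 8 marker lists of HSCs and other cell types, 0 of 55 tested genes were called by limma (3 higher and 8 lower with an unadjusted p under 0.05). Their part in the scatter of the globin genes was not tested.

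**Figure D5:**
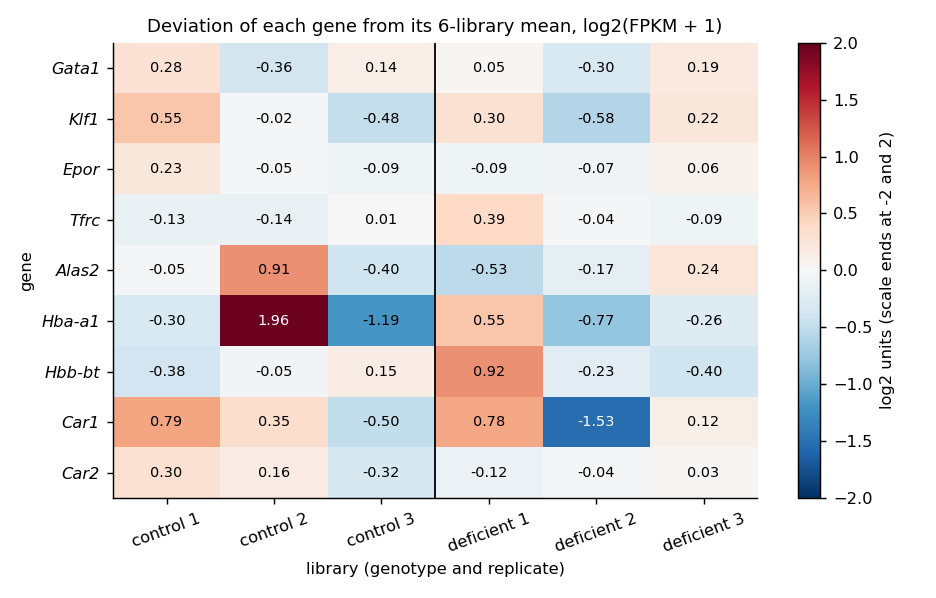
Deviation of each erythroid gene from its own 6-library mean on the log2(FPKM + 1) scale, by library, with red above and blue below the mean. The largest deviations are Hba-a1 in control replicate 2 and Car1 in Emp1-deficient replicate 2, and no column pattern separates the genotypes.

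Among 9116 protein-coding genes outside the lists with a mean of at least 5 FPKM, those most like the mean standardised profile of the 9 genes over the 6 libraries were Hars, the cytosolic histidyl-tRNA synthetase (Pearson r = 0.992), the nucleolar gene Nol12 (0.991), the phosphatase gene Ctdspl (0.979), Smim1 (0.970) and Mzt2 (0.969). The 6 points share their library and depth with the 9 genes, and 51 candidates exceeded 0.9. Smim1, which in humans carries the Vel blood group antigen, stood at 11.7, 7.59 and 5.23 FPKM in the controls, against 9.46, 3.4 and 7.74 FPKM in the Emp1-deficient group. It was lowest where Car1 and Klf1 were lowest, which its choice by likeness to the profile of the 9 genes made likely.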

How the data were processed

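RNA-seq of sorted HSCs was analysed from a single table of FPKM for 6 libraries, 3 per genotype, which the authors deposited. The submitters' processing notes name Bowtie 0.12.9, Cufflinks 2.1.1, HTSeq, DESeq2 and the build mm10, without their roles. Counts were not used here. Of 55401 identifiers 55141 had a symbol. Values were taken as log2(FPKM + 1), and the 15723 genes that reached 1 FPKM in 3 or more libraries were compared between genotypes with limma 3.58.1 in R 4.3.3, with no covariate and Benjamini-Hochberg adjustment at 0.05. A fold on this scale understates the change of low genes. The code was tested on simulated data.

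The erythroid genes and the lists were chosen with earlier results of these data known. Named beyond them were sister genes, from each list the called genes, up to 4 with the smallest p and the 3 most abundant, from marker lists the 3 most abundant, and the 5 protein-coding genes of most similar profile. Other genes are marked as named after their values were seen. Ahsp, a globin chaperone, matched no identifier and was not analysed here, and some genes of the lists are not reported here by name. Coding sequences were compared as the longest reading frames of GENCODE M21 transcripts. Alternatives varied the pseudocount, filter, scaling, weights, genes tested, replicate block and libraries.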

Additional observations from a re-analysis of the deposited data

How the results depend on the processing

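No alternative called any of the 9 erythroid genes, but the sign of most depended on 1 library. Leaving out each library in turn gave log2 fold changes from -0.23 to 0.099 for Gata1, -0.28 to 0.25 for Klf1, -0.12 to 0.040 for Epor, -0.27 to 0.034 for Car2, -0.92 to 0.24 for Car1, -0.99 to 0.58 for Hba-a1, -0.22 to 0.44 for Hbb-bt and -0.59 to 0.067 for Alas2. Without control replicate 1 the signs of Gata1, Klf1, Epor and Car2 turned, and without Emp1-deficient replicate 2 those of Gata1, Klf1 and Car1. Without control replicate 3 that of Gata1 turned as well. Gata1 also turned with array weights (0.016) and Klf1 with quantile normalization (0.0055). Among other genes the ranges were -0.35 to 0.089 for Gata2, -1.43 to 0.19 for Hba-a2, -0.41 to 0.74 for Hbb-bs, -0.24 to 0.60 for Lmo2, -0.26 to 0.083 for Nfe2 and -0.64 to 0.39 for Rhd. Hbb-bs was also negative with a pseudocount of 5 (-0.021), as TPM (-0.018) and with array weights (-0.28). The cause was not tested.

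Counts over all genes moved more. Against 25 higher and 17 lower, there were 14 and 15 with a pseudocount of 0.1, 6 and 9 with a pseudocount of 5, 2 and 3 without a filter, 49 and 64 at 5 FPKM or more, 14 and 14 as TPM, 15 and 9 with quantile normalization, 37 and 45 with array weights, 70 and 142 with short and non-coding genes left out, and from 3 to 20 higher and from 2 to 20 lower on leaving out a library. The median of the transcription factor list was 0.0043 without Emp1-deficient replicate 1 and -0.26 without Emp1-deficient replicate 3, and that of the haem list 0.026 without control replicate 2.

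Same-numbered libraries of the genotypes did not deviate together (correlations of -0.108, 0.0859 and -0.0523), so the numbers are not taken as pairs. With a replicate block 6 genes were called higher and 2 lower, and 0 of the 9. Absolute depth is unknown, so the counting error of low values such as those of Alas2 could not be estimated.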

Other observations

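Genes of the G2 and M phases, a list of 15 that holds Ccnb1, Cdk1, Top2a and Plk1, were higher on average in Emp1-deficient libraries in 15 of 15, with 0 called by limma and 0 at an unadjusted p under 0.05. The median log2 fold change was 0.24, beside -0.046 for all 15723 genes tested, of which 6773 were higher and 8950 lower. Their summed level was 695.9, 457.2 and 476.1 FPKM in controls and 593.3, 674.8 and 627.3 FPKM in Emp1-deficient libraries, so control replicate 1 was the highest of the 6. Megakaryocyte markers were lower on the log2(FPKM + 1) scale in 9 of 9 tested, with 0 called and a median of -0.10. The mean FPKM of Pf4 was not (356 and 361 FPKM in controls and Emp1-deficient libraries), and their summed levels overlapped, at 948.5 to 1111 FPKM in controls and 764.6 to 1213 FPKM in Emp1-deficient libraries. In 1 of the 9 the genotypes did not overlap, against 13.2% of all genes tested in that direction. That was Treml1, named after its values were seen, at 22.0 ± 0.551 and 14.9 ± 1.81 FPKM (limma adjusted p = 0.0969).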
